A study of Mus musculus with 4 samples.

Results

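Mouse promoters that are poor in CpG dinucleotides and nevertheless carried H3K27ac, the acetylation of histone H3 that accompanies active promoters and enhancers, were described in hippocampal tissue. A promoter was taken as CpG-poor when the observed number of CpG in the 1 kb around the main transcription start site (TSS) was under 0.3 of the number its C and G content predicts. It carried the mark when a peak of the authors' replicated list lay within 1 kb of that TSS. By this rule 836 of 6691 CpG-poor genes were members, out of 20722 autosomal protein-coding genes in GENCODE M21. The members were chosen by the presence of a peak, so their signal, width and pool support are given as a description and not tested.

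The tissue was the layer of hippocampus of male B6CASTF1/J mice aged 2 months, the F1 hybrid of the C57BL/6 and CAST strains, with no treatment named in the labels. ChIP-seq with an antibody to H3K27ac gave 4 samples in 1 group: tissue pools named C and D of 7 biosamples each, with 2 technical replicates per pool. The pool was therefore the unit of replication, with 2 pools and no contrast of conditions. Peaks were deposited on mm10 (GRCm38) as a replicated list of 88930 peaks, a list from both pools together, a list of 94836 peaks from pool C and a list of 63623 peaks from pool D. Read totals were not in the files used, so the depth behind each peak is unknown and a missing peak means only that none was detected. The tissue was bulk, so fewer cells of a type and less of the mark per cell cannot be told apart.

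Most mammalian promoters lie in CpG islands, unmethylated stretches that stay open in many cell types and often serve housekeeping genes. Promoters outside islands are usually methylated where the gene is silent, and many of them belong to genes of 1 specialised cell type, such as myelin, immune or secreted proteins. Acetylated histones there go with use of the promoter by the cell type concerned, or with an enhancer that covers the start site.

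The contrast in sequence is visible in the 150 bases before the TSS. The first 5 promoters are each among the 2 of highest signal on the astrocyte, oligodendrocyte, microglia, endothelial and excitatory neuron lists among members supported by both pools, with the TSS inside the peak and no CpG-richer start site, other gene's start site or CpG island in it. The last is the promoter of highest signal among CpG-rich genes of the synapse and ion channel list, Vamp2, which encodes a vesicle protein of neurotransmitter release. All are 5′ to 3′ on the gene's strand from RefSeq's GRCm38 sequence, the C57BL/6 reference, and capitals mark each CpG.
Aldoc (chr11:78322818-78322967, plus strand): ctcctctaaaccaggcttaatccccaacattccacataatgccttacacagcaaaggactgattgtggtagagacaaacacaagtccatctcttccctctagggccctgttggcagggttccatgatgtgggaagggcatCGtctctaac
Tmem88b (chr4:155785875-155786024, minus strand): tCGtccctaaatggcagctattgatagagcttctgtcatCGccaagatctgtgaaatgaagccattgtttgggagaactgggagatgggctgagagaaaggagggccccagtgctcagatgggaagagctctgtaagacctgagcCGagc
Sparc (chr11:55419899-55420048, minus strand): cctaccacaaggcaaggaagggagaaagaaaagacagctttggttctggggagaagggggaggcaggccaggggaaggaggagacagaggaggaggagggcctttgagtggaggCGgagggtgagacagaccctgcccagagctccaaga
Slco1c1 (chr6:141524236-141524385, plus strand): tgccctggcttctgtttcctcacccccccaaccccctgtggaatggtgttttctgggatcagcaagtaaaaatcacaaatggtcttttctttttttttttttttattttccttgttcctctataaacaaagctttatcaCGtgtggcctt
Gria1 (chr11:57011237-57011386, plus strand): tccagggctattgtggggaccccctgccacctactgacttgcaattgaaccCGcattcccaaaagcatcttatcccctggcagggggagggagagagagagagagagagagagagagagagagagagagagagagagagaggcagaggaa
Vamp2 (chr11:69088340-69088489, plus strand): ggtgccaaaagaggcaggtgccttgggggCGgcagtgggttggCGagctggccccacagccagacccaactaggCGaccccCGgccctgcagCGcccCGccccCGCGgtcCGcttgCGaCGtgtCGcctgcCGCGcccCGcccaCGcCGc
These stretches held 1, 3, 1, 1 and 1 CpG in the members, in the order shown, and 17 in Vamp2. Over the whole 1 kb window the members had a median of 13 CpG (quartiles 9 and 16), against 73 (quartiles 59 and 91) in the 9019 marked promoters that were CpG-rich, with an observed/expected ratio of 0.6 or more. Their median GC content was 50.6%, against 61.4% in the CpG-rich promoters.

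The mark was uncommon at CpG-poor promoters and became more common with each step in CpG content. Of all 20722 genes 59.3% carried it, and of the CpG-poor genes 12.5% did (95% Wilson interval 11.7% to 13.3%, which covers the counting of genes only). Below an observed/expected ratio of 0.1 the share was 3.29%, or 55 of 1673 genes. It was 10.5% between 0.1 and 0.2 and 23.1% between 0.2 and 0.3. Above the threshold it ran on through 38.2% between 0.3 and 0.4 to 95.2% from 0.8 upward, so the threshold of 0.3 falls within a rise across all 8 bins. Olfactory and vomeronasal receptor genes were nearly all CpG-poor and unmarked, and without them 829 of 5255 CpG-poor genes (15.8%) carried the mark.

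**Figure D1:**
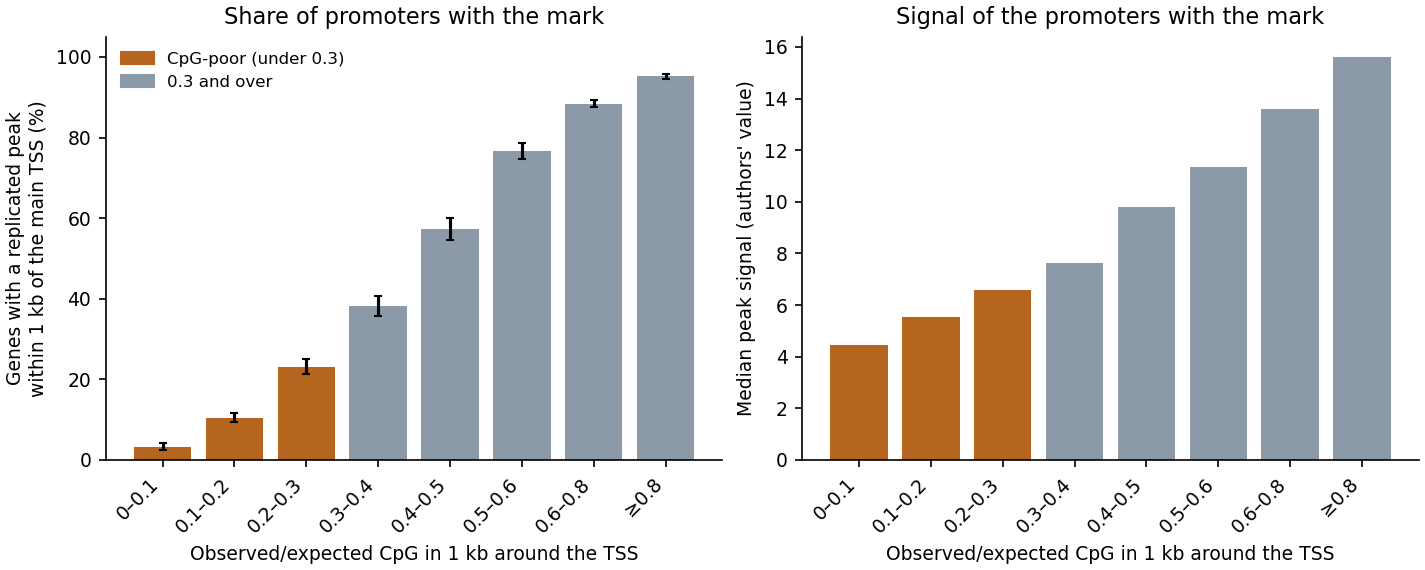
Share of autosomal coding genes with a replicated peak within 1 kb of the main TSS (left, %, bars with 95% Wilson intervals) and median peak signal of those genes (right, the authors' value), by observed/expected CpG of the promoter. CpG-poor promoters are the 3 bins on the left of each panel, whose shares are 3.29%, 10.5% and 23.1% and whose median signals are 4.45, 5.55 and 6.59, and both measures are higher in every later bin.

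Members had weaker peaks than CpG-rich promoters, of lower median width, but more of the surrounding 20 kb lay under replicated peaks. The signal of each peak is the authors' value, of unstated scaling, so signals are ranked and compared only within a list. Where the signals of pools C and D stand side by side, each is on its own list's scale. Each is that of the strongest peak of the pool list that overlaps the replicated peak by at least 1 bp. That pool peak need not lie within 1 kb of the TSS. The median signal of the members was 6.13 (quartiles 3.82 and 11.1, highest 35.9), against 14.5 (quartiles 9.84 and 19.7) in CpG-rich marked promoters. Among all 88930 replicated peaks the median was 4.28, and 579 members (69.3%) lay above it. Peak width had a median of 1518.5 bp in members (197 to 18489 bp), against 1725 bp in CpG-rich promoters. In marked promoters of middle CpG, with a ratio from 0.3 to under 0.6, it was 1489 bp. The lower width thus held against CpG-rich promoters and not against those of middle CpG. Peaks covered a median of 3539 bp of the 20 kb around the TSS in members, against 2723 bp around CpG-rich promoters. This counts every replicated peak in the 20 kb, separate ones and those of neighbouring genes included, so it is not the width of 1 tract. Both tails of width were larger in members: 70 (8.37%) had a peak of 5 kb or more and 112 (13.4%) one under 500 bp, against 4.88% and 3.33% of CpG-rich promoters. The wide tail differed among the kinds of member described below.

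The peak was also placed differently. It contained the TSS itself in 483 members (57.8%), against 85.7% of CpG-rich marked promoters. The summit lay within 500 bp of the TSS in 398 members (47.6%), against 90.3%. In both sets it was more often downstream of the TSS than upstream, in 67.7% of members and 72.3% of CpG-rich promoters.

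A peak near a CpG-poor start site can belong to a neighbouring, CpG-richer one, and this separated the members into kinds. In 639 members (76.4%) the peak held no other coding TSS of higher CpG or of another gene, and these are called stand-alone here. In 120 members (14.4%) the peak also covered another start site of the same gene with a ratio of 0.3 or more, in 61 (7.30%) such a start site of another gene, and in 16 (1.91%) another gene's CpG-poor start site. Stand-alone peaks were the weakest, with a median signal of 5.01 and a median width of 1219 bp. A peak of 5 kb or more occurred in 37 of them (5.79%), near the 4.88% of CpG-rich promoters. It occurred in 15.8% of members with a CpG-richer start site of the same gene in the peak. With such a start site of another gene it was 23.0%. Peaks with a CpG-richer start site of the same gene had a median signal of 12.4 and of another gene 15.4, close to the 14.5 of CpG-rich promoters. A CpG island window, 500 bp with a ratio of 0.6 or more and at least 50% GC, lay in the peak of 54 stand-alone members (8.45%), 79 of the 120, 51 of the 61 and 0 of the 16. The 836 members used 824 distinct peaks, since 12 peaks each served 2 members.

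**Figure D2:**
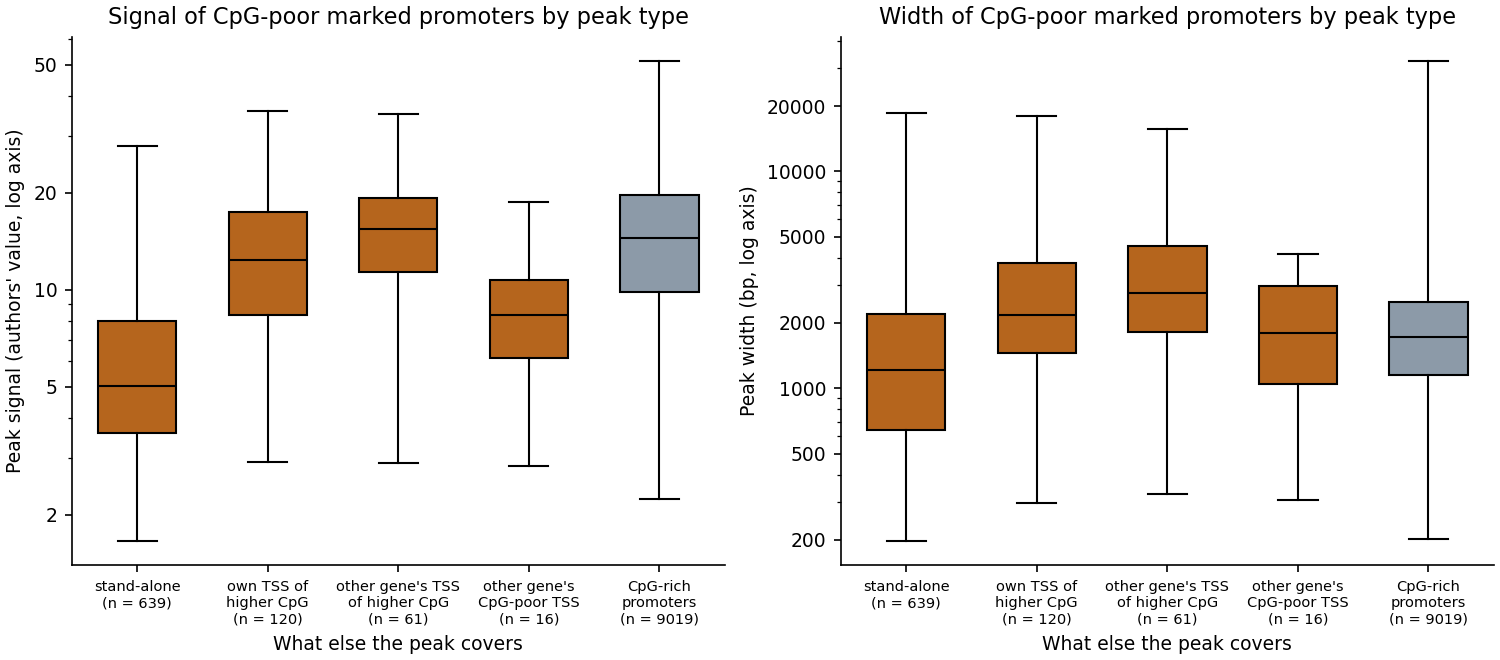
Peak signal (left, the authors' value) and peak width (right, bp) on log axes for the 4 kinds of CpG-poor marked promoter and for CpG-rich marked promoters. Lines in the boxes are medians, boxes span the quartiles and whiskers reach the lowest and highest value. Stand-alone peaks have the lowest median signal, 5.01, and the lowest median width, 1219 bp.

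The strongest members were mainly of the shared kinds. Of the 15 members of highest signal, 13 shared their peak with a CpG-richer start site of the same gene or of a neighbour. Zmynd8, which encodes a chromatin reader, led with a signal of 35.9 over a peak of 17981 bp (chr2:165871188-165889168), and 40.6 in pool C and 24.96 in pool D. Its peak covers another start site with a ratio of 0.401. Zfp532, a zinc finger gene, followed with 35.4 and Gm26602 with 35.2, the peak of Gm26602 covering the TSS of Med16, a subunit of the Mediator complex. Wtap, a subunit of the RNA adenosine methyltransferase complex, had 32.5 from a peak 631 bp away that holds another start site of the gene with a ratio of 0.954. Aldoa, the glycolytic aldolase, and Fam57b shared a peak of signal 31.2. Elp5 (31.0) shared its peak with Ctdnep1, Mllt11 (30.5) with Cdc42se1, and 6820408C15Rik (28.5) with Zcchc3. Pik3ip1 (28.8), Abcb8 (26.3) and Wscd1 (25.8) shared theirs with another start site of their own. The 2 that shared with no CpG-richer start site were Mknk2, a kinase acting on a translation initiation factor, at 28.05, and Sdcbp2 at 25.1. Both were stand-alone, but a CpG island window lay within both peaks.

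Members that were stand-alone and had no CpG island window in the peak numbered 585, with a median signal of 4.83. Their 10 strongest, named after their values were seen, all had peaks in both pools. Gpr22, an orphan receptor, had 24.9 over 8260 bp, with 29.1 in pool C and 15.7 in pool D. Ypel4 had 23.2 over 2721 bp, and Chrm1, a muscarinic acetylcholine receptor of forebrain neurons, had 23.0 over 2811 bp. Neuronal and astrocytic genes were among the next. Tef, a clock-controlled transcription factor, had 22.8, Inpp5j, an inositol phosphatase, 22.2, and Slc4a10, a bicarbonate transporter of neurons, 22.0. Hepacam, an adhesion protein of astrocytes, had 21.5, 1700008O03Rik 20.9, Frmd4a 20.5 and Cyth1, an exchange factor for Arf GTPases, 20.2. These values lie above the 14.5 median of CpG-rich promoters, so a high signal also occurred without a CpG-rich start site or island in the peak.

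The widest peaks were of both kinds. G430095P16Rik had the widest, 18489 bp, with a summit 7332 bp downstream of its TSS, and Zmynd8 followed. Aspdh had 15655 bp in a peak shared with Josd2, Kdm6b, a histone demethylase, 12722 bp, and Celf3, a splicing regulator of neurons, 12253 bp. Zfp532 had 11248 bp and Ddn, a protein of the postsynaptic density, 11243 bp. Stmn4, a regulator of microtubules in neurons, had 10120 bp in a stand-alone peak, Siae 9867 bp in a peak shared with Nrgn, and Cyth1 9768 bp. In the 4 stand-alone cases (G430095P16Rik, Kdm6b, Stmn4 and Cyth1) the peak reached far beyond the promoter window on which the CpG ratio was measured.

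Genes on 13 lists drawn up for the hippocampus, called hippocampal lists here, made up a visible part of the members. Of 177 distinct CpG-poor genes on these lists 85 were members. That was 48.0% (40.8% to 55.3%), read beside the 12.5% of all CpG-poor genes. Besides cell types the lists cover gene classes, such as neuropeptide and synapse genes, and choroid plexus. Not every gene on them is therefore a marker of a hippocampal cell. On 5 lists for other tissues, counting genes on no hippocampal list, 13 of 131 were members, or 9.92% (5.89% to 16.2%). The other 738 members were on no list, 11.6% of 6383. The lists were chosen with earlier results of these data known, so these shares are descriptions. Glial and neuronal lists differed widely among themselves, from 14 of 16 in oligodendrocytes to 0 of 5 in activity response.

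**Figure D3:**
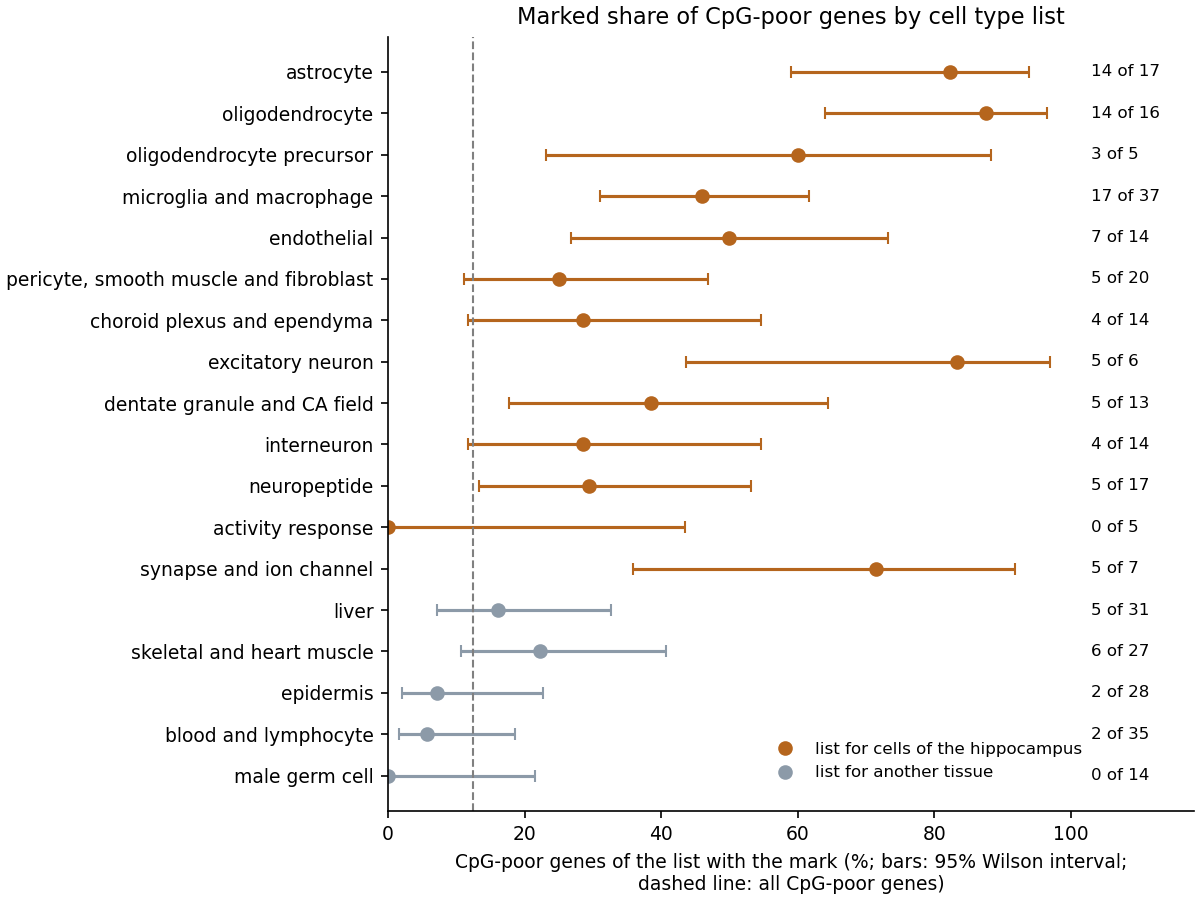
Share of the CpG-poor genes of each list that carried the mark (%, points with 95% Wilson intervals), with the number of members and of CpG-poor genes at the right. The dashed line is the 12.5% of all CpG-poor genes. Oligodendrocyte (87.5%), excitatory neuron (83.3%) and astrocyte (82.4%) lists stand highest, and male germ cell and activity response lists are at 0.

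Astrocytes, the glia that take up glutamate and potassium, had the mark at 14 of 17 CpG-poor genes, and all 14 had a peak in both pools. Aldoc, the brain form of aldolase, had a signal of 13.5 over 5130 bp, with 14.4 in pool C and 10.7 in pool D. Gpr37l1, an orphan receptor, had 11.7, and Agt, the precursor of angiotensin, 10.9. All 3 were stand-alone peaks above the members' median of 6.13. Plcd4, a phospholipase, had 9.02, and Slc25a18, a mitochondrial glutamate carrier, had 8.10. A further 8 ran from 3.41 in Vcam1 to 7.87 in Mlc1 and held S100b (7.08) and Slc1a2 (6.59), the main glutamate transporter. The median of the 14 was 7.67, against 11.0 for the 30 marked genes of the list with higher CpG. Aqp4, Fgf1 and Phkg1 had no replicated peak at their main TSS.

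Oligodendrocytes, which make myelin, had the mark at 14 of 16 CpG-poor genes, of lower signal and less even pool support than in astrocytes. The peaks of 9 were in both pool lists, those of 3 (Mag, Hapln2 and Ninj2) in pool C alone and those of 2 (Sox10 and Enpp6) in neither. Tmem88b had 9.13, with 21.4 in pool C and 6.71 in pool D. The median of the 14 was 5.24. Apod, a lipid carrier, had 7.76 over 6341 bp. Carns1, the carnosine synthase, had 6.42, and Ermn, a cytoskeletal protein of myelin, had 6.13. Mag, an adhesion protein of myelin, also had 6.13, with 8.0 in pool C and no peak of pool D overlapping its replicated peak, although 1 lay within 1 kb of the TSS. Around their start sites peaks covered a median of 6019 bp of 20 kb, against 3539 bp for all members. Bcas1 and Klk6 had no peak at the main TSS. Of 5 CpG-poor genes of oligodendrocyte precursors 3 were members: Cspg5 at 21.6 and Rlbp1 at 6.13, each sharing its peak with a CpG-richer start site of its own, and Gpr17, a receptor of differentiating precursors, at 4.12 in pool C alone, while Neu4 and Pid1 had none.

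Microglia, the resident macrophages, had the largest number of CpG-poor genes on any list, 37 of 59 autosomal genes (62.7%), and 17 of them were members. Their peaks were faint and narrow, with a median signal of 3.82 and a median width of 728 bp, and all 17 were stand-alone. Support was mostly from pool C: 4 had peaks in both pool lists, 11 in pool C alone, 1 (Laptm5) in pool D alone and 1 (Fcer1g) in neither. The TSS lay inside the peak in 8. With the pool C list in place of the replicated list 20 of the 37 genes had a peak within 1 kb, and with the pool D list 6 had. Sparc, a secreted matrix protein that cells of vessels make too, had 11.7, with 14.2 in pool C and 6.92 in pool D. Csf1r, the receptor for colony-stimulating factor, had 5.32, Ltc4s, a leukotriene synthase, 5.20, and Spi1, a transcription factor of myeloid cells, 5.09. Without Sparc no microglial member passed the members' median of 6.13. Cd68, a lysosomal protein, had 4.86 and Cx3cr1, the fractalkine receptor, 4.28, and both were found in pool C alone. Among the 20 CpG-poor genes of the list without the mark were Aif1, C1qa and C1qb, and 5 of the 20 had a peak in the pool C list (C1qa, C1qb, Ctss, Itgam and Siglech). The 5 were named after their values were seen.

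Cells of vessels and of the ventricle surface gave fewer members. Of 14 CpG-poor endothelial genes 7 were members. Slco1c1, a thyroid hormone transporter of brain endothelium that astrocytes also make, stood apart at 12.02 over 6982 bp, with 14.6 in pool C and 7.33 in pool D. The others ran from 2.89 in Pecam1, in a peak shared with Milr1, to 5.44 in Slco1a4, an organic anion transporter, and held Emcn (4.67), Egfl7 (4.55), Cdh5, the cadherin of endothelial junctions (4.395), and Ly6c1 (3.01). Ctla2a, Ctla2b and Erg had no peak at the main TSS. With the pool D list alone 3 of the 14 had a peak. Of 20 CpG-poor genes of pericytes, smooth muscle and fibroblasts 5 were members, led by Vtn at 7.81 in a peak shared with Sarm1, and followed by Lum (4.74), Ptgds (3.94), Col3a1 (3.82) and Dcn (3.59), while Acta2, Anpep and Atp13a5 had none. Of 14 genes of choroid plexus and ependyma 4 were members: Mia (9.09), Ttr, the thyroid hormone carrier of choroid plexus (6.09), Rarres2 (4.395) and Sostdc1 (3.90). Ccdc153, F5 and Folr1, also on that list, had none. With the pool D list alone 3 of the 20 and 2 of the 14 had a peak.

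The excitatory neuron list held few CpG-poor genes, 6 of 49 autosomal genes (12.2%). Of these 5 were members with peaks in both pools, all but Lamp5 above the members' median of 6.13. Camk2a, the kinase of synaptic plasticity, had 21.9 over 8409 bp, with 25.4 in pool C and 14.98 in pool D, in a peak that also covers a CpG-richer start site of its own. Gria1, a subunit of AMPA receptors, had 10.6, Neurod6, a transcription factor of pyramidal cells, 9.42 over 9415 bp, Cck, the peptide cholecystokinin, 8.09, and Lamp5 4.63. Pde1a had no peak at the main TSS. Of the genes of this list with higher CpG 40 of 43 (93.0%) were marked, beside 81.6% of all 14031 genes of higher CpG. This share differed among lists. On hippocampal lists it ran from 8 of 32 in neuropeptide genes to all 44 in activity response genes. On lists for other tissues it ran from 0 of 6 in epidermis to 3 of 8 in liver. Whether promoters of higher CpG tell tissues apart was not tested. Of 13 genes of dentate granule cells and CA fields 5 were members: Man1a (11.4), Rgs14 (9.83), a regulator of G protein signalling, Lct (9.12), Pcp4 (8.43) and Tdo2 (4.45, pool C alone). Col6a1, Cpne4 and Csf2rb2 had none.

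The synapse and ion channel list held the highest median among lists with a member, 17.2 over 5 members of 7 CpG-poor genes. Dlg4, the scaffold of the postsynaptic density, had 17.2 over 5478 bp, with 21.6 in pool C and 11.2 in pool D. Nlgn1, a synaptic adhesion protein, was weak at 3.29. The pool peaks overlapping its replicated peak had 5.88 in pool C and 4.09 in pool D, but neither pool list had a peak within 1 kb of its TSS. Gabra6, a receptor subunit of the cerebellum, and Shank2 had no peak at the main TSS. With the pool D list alone 3 of the 7 had a peak.

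Interneuron and neuropeptide lists held 14 and 17 CpG-poor genes. Of the 14 interneuron genes 4 were members: Nr2f2, a nuclear receptor (9.60), Kcnc2, a potassium channel of fast-spiking cells (8.91), and Cck and Lamp5, which the excitatory list also holds. Chrna2, Gad1 and Htr3a had no peak at the main TSS. Of the 17 neuropeptide genes 5 were members: Ghrh (10.4), Cck, Grp (5.23), Npff (4.97) and Hcrt (3.01), while Avp, Gnrh1 and Igf1 had none. Activity response genes, which neurons induce on firing, had 5 CpG-poor genes and 0 members. Of the 5, Atf3, Cdkn1a, Ifrd1 and Vgf had a replicated peak at another coding TSS, and with the pool C list 1 gene, Maff, had a peak at the main TSS. All 44 genes of the list with higher CpG were marked, beside the 81.6% of all such genes.

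Members also came from lists for other tissues. The share was above the 12.5% of all CpG-poor genes in muscle (22.2%) and liver (16.1%) and below it in the other 3 lists, but the place of liver did not hold. It had 6.45% with the pool D list, against 8.504% of all CpG-poor genes there, and 12.9%, against 13.4%, with the list from both pools together. Skeletal and heart muscle had 6 of 27, led by Myh7, the slow myosin heavy chain, at 15.2 over 3396 bp, with 15.2 in pool C and 12.8 in pool D, and Sln, a regulator of the calcium pump, at 9.10. Ldb3 (6.25), Casq1 (5.32), Tnni2 (3.24) and Tnnc1 (2.89) were the others, and Acta1, Actc1 and Atp2a1 had none. Liver had 5 of 31, and Ttr and Tdo2 among them are on hippocampal lists as well. Fga, a chain of fibrinogen, had 8.56, Itih1 3.21 and Apoc3 3.01, while Ahsg, Amy1 and Apoa1 had none. Epidermis had 2 of 28, Lor, a protein of the cornified envelope, at 14.9 from a peak 823 bp from its TSS that holds a CpG island window, and Krt77 at 7.98, while Asprv1, Casp14 and Cdsn had none. Blood and lymphocytes had 2 of 35, Epor (7.10) and Klf1 (5.21), and Blk and Camp had none. Male germ cells had 0 of 14, Acr, Acrv1 and Akap3 among them. With the pool D list alone liver had 2 members and epidermis 1.

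**Figure D4:**
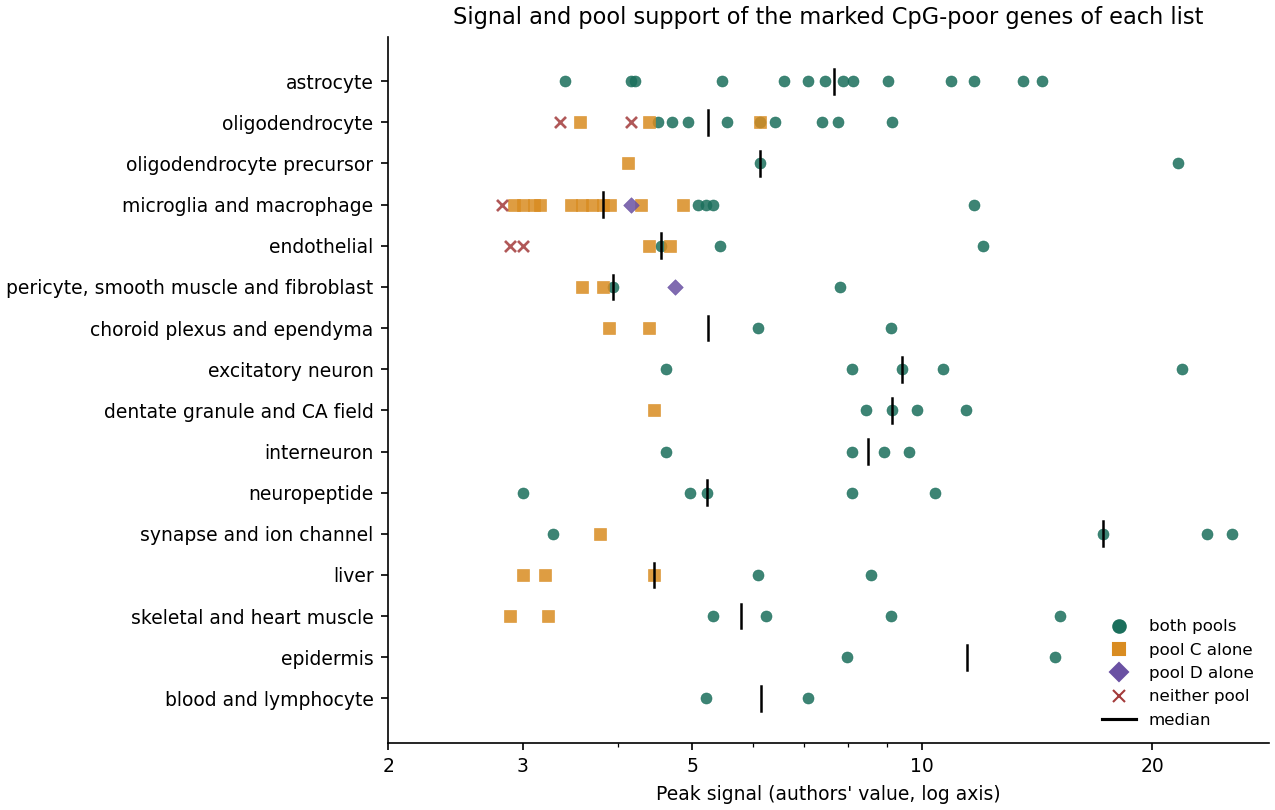
Peak signal (the authors' value, log axis) of every marked CpG-poor gene of each list, with symbols for the pool lists that hold an overlapping peak and a line at the median of the list. Microglial members lie between 2.82 and 5.32 except Sparc at 11.7 and are mostly found in pool C alone, whereas all astrocyte members, 3.41 to 14.4, were found in both pools.

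A main TSS without a peak did not always mean a gene without one. Of the 92 unmarked CpG-poor genes on hippocampal lists, 26 (28.3%) had a replicated peak within 1 kb of another annotated coding TSS. That was against 6.88% of all 5855 unmarked CpG-poor genes, which include the unmarked olfactory and vomeronasal receptors. Only a gene with over 1 coding transcript can have such a peak. Counting those alone, it was 26 of 69 genes on hippocampal lists, against 403 of 3434. Among the 26 were Aqp4, Fgf1 and Phkg1, which are all 3 unmarked genes of the astrocyte list, the 4 of the activity response list named above, and Bcas1, Gad1, Pde1a, Shank2 and Aif1. The main TSS was the one most coding transcripts share, or the most upstream where transcripts tie, and no expression data entered the choice.

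Short motifs known from promoters were counted from 250 bp before to 50 bp after the TSS on both strands. TATAAA at 40 to 15 bp before the TSS on the gene's strand, the place of a TATA box, was in 21 members (2.51%), against 5.72% of CpG-poor promoters without the mark, 0.776% of CpG-rich marked promoters and 2.505% of all autosomal promoters. GGGCGG, the GC box, was in 15.8% of members, against 6.88%, 71.8% and 44.6% in the same 3 sets. CAGCTG, an E-box, was in 22.8%, against 16.6%, 13.02% and 15.5%. So member promoters lay between the unmarked CpG-poor and the CpG-rich promoters for the first pair of motifs, and above both for CAGCTG. For CATCTG, another E-box, members (24.6%) were near the unmarked CpG-poor promoters (22.8%), against 9.27% of CpG-rich ones. In all 16 motif sequences were counted, and the sets were not matched for GC or CpG content. Among the 16, TGACTCA and TGAGTCA are the same site on opposite strands, as are AGGTCA and TGACCT. A match describes the letters in the window and shows no binding.

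Positioned TATAAA occurred at 5 members of the gene lists. Of these Slco1c1 and Agt had the highest signals on hippocampal lists, 12.02 and 10.9, and their last 50 bases before the TSS are shown with TATAAA in capitals.
Slco1c1 (chr6:141524336-141524385, plus strand): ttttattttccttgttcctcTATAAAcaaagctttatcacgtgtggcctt
Agt (chr8:124569707-124569756, minus strand): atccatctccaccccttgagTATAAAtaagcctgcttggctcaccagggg
In both the motif began 30 bases before the TSS. The other 3 were Lor, Laptm5 and Hcrt. Furin (16.1) had the highest signal of the 21 members with the motif.

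GAGGAAGT, a sequence bound by ETS factors of myeloid cells, was in 42 members (5.02%), against 4.94% of unmarked CpG-poor promoters and 3.24% of all. Among the 17 microglial members 4 had it, and among the 20 unmarked CpG-poor genes of that list 2 (Ctss and Nckap1l). The sites are shown with 10 bases on each side, on the gene's strand, where all 4 read as the reverse complement ACTTCCTC, in capitals.
Cyth4 (chr15:78597063-78597090, plus strand): gccagggctgACTTCCTCccacagggtc
Cd53 (chr3:106790126-106790153, minus strand): actcagtctcACTTCCTCactcttctcg
C1qc (chr4:136893092-136893119, minus strand): gacggcagacACTTCCTCattttggcac
Tyrobp (chr7:30413748-30413775, plus strand): cccacctcacACTTCCTCcttcacttgg
The sites began 69, 44 and 2 bases before the TSS in Cyth4, C1qc and Tyrobp, and 6 bases after it in Cd53. The 4 peaks had signals of 3.91, 3.59, 3.47 and 3.82 in that order of genes, all overlapped by a peak of pool C alone. For Cd53 the pool D list had another peak within 1 kb of the TSS. On the oligodendrocyte list ACAATG, a sequence of SOX factors, was in 5 of 14 members (Apod, Enpp6, Ermn, Hapln2 and Tmem88b), against 13.5% of all members, 18.3% of unmarked CpG-poor promoters and 10.4% of all promoters. Of the 2 unmarked CpG-poor genes of that list Klk6 had it, and of the 30 marked genes of the list with higher CpG 1 had it. ACAAAG, a similar sequence that was also counted, was in 3 of the 14 members. That was beside 23.4% of all members and 24.2% of unmarked CpG-poor promoters. These matches were noted among 16 motif sequences and 18 lists.

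The replicated peaks of members had less support in the pool lists than those of CpG-rich promoters. A peak of both pool lists overlapped the replicated peak by at least 1 bp in 586 members (70.1%, 66.9% to 73.1%), against 95.9% of CpG-rich marked promoters. It came from pool C alone in 177 (21.2%), from pool D alone in 8 (0.957%) and from neither in 65 (7.78%). The share with both pools was 62.1% for stand-alone members and 96.7% and 98.4% for members whose peak also covered a CpG-richer start site of the same gene or of another. Support followed signal, with medians of 8.44 for members found in both pools, 3.67 in pool C alone, 3.8 in pool D alone and 2.89 in neither. Peak width had the same order for both pools against the rest, 2008.5 bp against 704, 494.5 and 349 bp.

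Of members found in neither pool list, Sox10, a transcription factor of the oligodendrocyte lineage, had the highest signal (4.16 over 500 bp), though each pool list had another peak within 1 kb of its TSS. Omd (3.98), Mustn1 (3.82), Ceacam1 and Trhr (3.70 each) and Arsa (3.59) followed. Those found in pool D alone were led by Lum (4.74), Laptm5 (4.16), Serpinb1a (3.93), AU021092 (3.82), Cyp4f14 (3.78) and Lgals2 (3.01). All were stand-alone and below the members' median. For Lum the pool C list had another peak within 1 kb of the TSS, which did not overlap the replicated peak.

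Where both pools had a peak, the pools ordered the members alike, with a Spearman correlation of 0.90 across 586 genes, which share their libraries and are not independent. The peak of pool C was the wider in 549 of the 586, as it was in 8036 of 8645 CpG-rich marked promoters with both. The width compared is that of the strongest overlapping peak of each list. More than 1 pool D peak overlapped the replicated peak in 183 members, and more than 1 pool C peak in 54. Each list has its own scale and the depth of each pool is unknown, so a difference in depth and a difference in the tissue cannot be told apart. Among the 5855 CpG-poor genes outside the members, 106 had a peak of pool C within 1 kb and 0 had one of pool D.

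**Figure D5:**
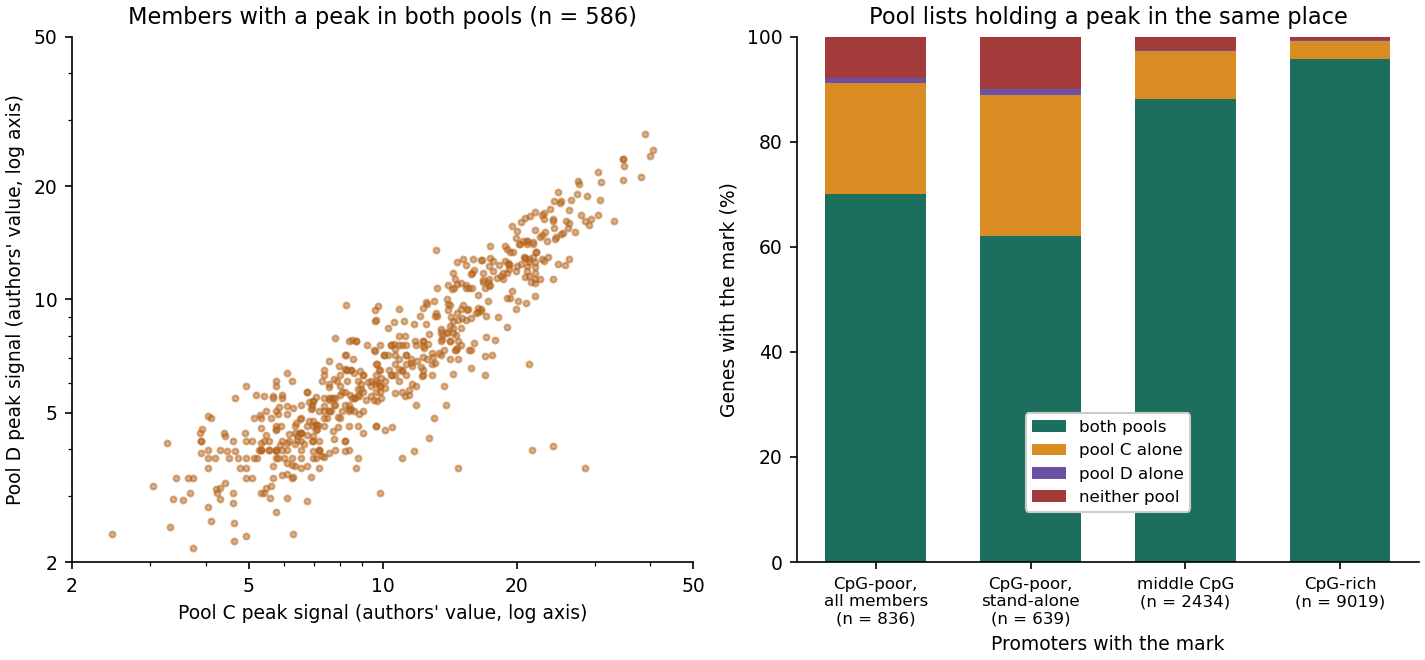
Signal in pool C against pool D (authors' values, log axes, each on its own list's scale) for the 586 members with a peak in both (left), and share of marked promoters by the pool lists that hold an overlapping peak (right, %). The Spearman correlation is 0.90, and support from both pools is 70.1% for members, 62.1% for stand-alone members, 88.1% for promoters of middle CpG and 95.9% for CpG-rich promoters.

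The genes nearest to the limits of the rule were these. Just under the CpG threshold were 3300002I08Rik, Dlc1 and Cpq, with signals of 8.80, 3.39 and 5.23. Just over it, and so outside the members, were Plekhm2, Gimap6 and Gimap1, with 15.4, 5.20 and 4.74. The lowest ratios among members were those of Olfr536 (0.0164), Olfr525 (0.0203), Msantd1 (0.0334), Plac8l1 (0.0433) and Wtap (0.0466). In all 5 the TSS lay outside the peak, by 289 to 943 bp. The farthest peaks counted were those of Olfr305, Vpreb3 and Serpind1 at 996, 993 and 987 bp, with signals of 3.01, 2.46 and 4.16. The nearest peaks not counted were those of Insc, Spink8 and Plcxd1 at 1002, 1026 and 1030 bp, with 5.12, 4.16 and 6.59.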

How the data were processed

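H3K27ac ChIP-seq peaks of 2 tissue pools were analysed as 4 lists on mm10, which the labels describe as narrowPeak files. Aligner and caller: not given in the sources used here. Each peak's signal is the authors' value as deposited, with no stated scaling. The −log10 q value of each peak and the summit, an offset from the peak start, are other values the authors deposited. No input control was analysed here. Depth per sample is unknown.

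Main start sites were those most coding transcripts of a gene share in GENCODE M21, the most upstream on ties. CpG ratios came from 1 kb of GRCm38, and each gene took its nearest replicated peak within 1 kb. Peaks of the pool lists supported it by an overlap of 1 bp. The steps were checked on simulated data. Software was matplotlib 3.10.9, pandas 2.3.3 and numpy 2.4.6 under Python 3.11.15.

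The members and lists (18 gene lists and 32 symbol families) were chosen with earlier results of these data known. Named genes were the 15 strongest and 10 widest members, up to 6 of highest signal and up to 3 unmarked genes per list, genes at the edges of the rule, and the strongest members with no pool list or pool D alone. A few genes under this rule are not reported here. Others, named to complete a count, were chosen after their values were seen. Alternatives covered peak lists, thresholds, windows, start sites, overlaps and each pool left out. No result was tested, so no p-value is given. Y-linked and X-linked genes were outside the rule.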

Additional observations from a re-analysis of the deposited data

How the results depend on the processing

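Most lists kept their place above or below the share of all CpG-poor genes, but 10 of 288 list values crossed it, in 5 lists. Liver, above it as reported, fell below with the list from both pools together (12.9% against 13.4%), the pool D list (6.45% against 8.504%), the peak over the TSS base (6.45% against 7.22%) and a CpG threshold of 0.35 (13.9% against 14.7%). Activity response, at 0, was above with the list from both pools together (20.0% against 13.4%), the pool C list (20.0% against 13.1%) and the 0.35 threshold (28.6% against 14.7%). Neuropeptide genes fell below with CpG in 2 kb (11.8% against 13.1%), interneurons with no CpG island window (7.14% against 9.92%), and choroid plexus over the TSS base (7.14% against 7.22%). The number of members stayed within 1.5 times 836 except with the peak over the TSS base itself (483). The share of CpG-poor genes with the mark, 12.5%, was 9.07% with the peaks above the median signal, 13.4% with the list from both pools together, 10.4% and 16.8% with windows of 500 bp and 2.5 kb, and 7.22% with the peak over the TSS base. It was 10.5% and 14.7% with CpG thresholds of 0.25 and 0.35, 10.7% with the ratio under 0.3 on both sides of the TSS, 11.3% without another gene's TSS in the peak, 9.79% without a TSS of higher CpG and 9.92% without a CpG island window, the last chosen after seeing the data. The median signal, 6.13, was 8.44 with the peaks above the median, 5.44 with the list from both pools together, 7.17 over the TSS base, 5.02 without a TSS of higher CpG and 4.99 without an island. The median width, 1518.5 bp, was 1986 bp above the median signal, 1970 bp over the TSS base, 1224 bp without a TSS of higher CpG, 1226.5 bp without an island and 1335 bp at 2.5 kb. The share with both pools, 70.1%, was 74.4% at a −log10 q of 5 or more, 91.4% above the median signal, 62.6% without a TSS of higher CpG, 59.3% with 50% of the peak covered in each pool list and 44.1% with 50% in both directions. Listed members, 88 counted per list, fell to 56 over the TSS base. The cause of these shifts was not tested.

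With each pool left out in turn, so that the other pool's list stood alone, members numbered 569 (pool D list) and 878 (pool C list), the share 8.504% and 13.1%, the median signal 5.87 and 6.71, the median width 1151 and 1408.5 bp and listed members 61 and 92. No paired analysis was possible because all samples formed 1 group. Unknown depth limits what an absent peak means, most of all for the faint microglial and stand-alone peaks.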

Other observations

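Gene families with CpG-poor promoters differed in how often they carried the mark, read beside 12.5% of all CpG-poor genes and 15.8% of those other than olfactory and vomeronasal receptors. Olfactory receptors, nearly all CpG-poor, had it at 6 of 1112 (0.540%), with a median signal of 4.09, and vomeronasal receptors at 1 of 324 (0.309%, Vmn1r199). Defensins had it at 0 of 59, with an upper limit of 5.08%. Small proline-rich and late cornified envelope genes had it at 0 of 36, with an upper limit of 8.33%. Both limits are 3 divided by the number of genes. This is an approximate 95% bound that takes genes as independent, and not a Wilson interval. Genes with a Tmem symbol had it at 17 of 50 (34.0%) and interleukins at 5 of 24 (20.8%). Solute carriers, 15 of 87 (17.2%), and serpins, 9 of 54 (16.7%), lay near the 15.8%, and the serpins held Serpina3n, which reactive astrocytes secrete. Potassium channel genes were members in 3 of 25 cases, Kcnj9 (18.4), Kcnip3 (17.7) and Kcnc2 (8.91), all stand-alone. Protocadherins had 1 of 8, Pcdhgc5 at 23.1. The families and genes in this paragraph were picked from 32 families after their values were seen.

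On the X chromosome, which the rule leaves out, 21 of 360 CpG-poor genes (5.83%, 3.85% to 8.75%) had a replicated peak within 1 kb of the main TSS. Among autosomes the share ran from 8.16% on chromosome 13 to 21.1% on chromosome 15.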
